A study of Mus musculus with 8 samples.

Results

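The 10 genes described here encode secreted proteins of the bone morphogenetic protein (BMP) pathway, namely the ligands Bmp2, Bmp3, Bmp4, Bmp5, Bmp6 and Bmp7 and the secreted antagonists Nog, Chrd, Fst and Grem1. They were chosen by name and by role, not by a measured value, from the 25834 genes of the count table. All 10 had enough reads to be tested. Hippocampal RNA of 8 male mice was sequenced, with 4 mice in the control group, 4 in the SAP97-cKO group and a separate library for each mouse. SAP97, a scaffolding protein of synapses, is encoded by Dlg1, and the SAP97-cKO mice were Nestin-cre+/-; SAP97fl/fl, with Cre driven by the Nestin promoter, which is active in the precursors of neurons and glia. Cells of other origin, such as those of the meninges, are not the named target of that promoter. The controls were littermates that were Nes-cre+/-, SAP97fl/fl or wild-type, and the sources used here give neither the genotype of each control library nor the age of the sequenced mice. The Nestin-cre line was on a C57Bl/6 background.

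BMP ligands are secreted as dimers that bring together type I and type II serine/threonine kinase receptors, which phosphorylate the receptor-activated Smads Smad1, Smad5 and Smad9. These pair with Smad4 and enter the nucleus, where genes such as Id1 and Smad6 respond. Noggin, chordin, follistatin and gremlin bind ligands outside the cell and keep them from their receptors, and in the dentate gyrus of the hippocampus the balance of BMP and noggin is known to set how often neural stem cells divide.

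Libraries held 37388177 to 37416649 counts in controls and 37391907 to 37426572 in SAP97-cKO mice, after the authors had resampled each library to a common depth. Dlg1 (ENSMUSG00000022770) fell from 4339 ± 337 normalized counts in controls to 2393 ± 470 in SAP97-cKO libraries (SD, n = 4 each), with no overlap, a log2 fold change of -0.86 (SE 0.12, edgeR quasi-likelihood test, Benjamini-Hochberg adjusted p = 0.143). These counts cover the whole gene. The paper reports a far larger fall for reads on a single exon of SAP97, and lower SAP97 protein in hippocampus. The dissected tissue also held RNA of markers of the meninges and of the choroid plexus. All 20 genes of a list of meningeal fibroblast markers had log2 fold changes below 0, and 8 of them passed the test. The mean level of the list was 3.11 to 3.78 log2 CPM (counts scaled to a total of 1000000) in controls against 1.75 to 2.85 in SAP97-cKO libraries, with no overlap. The list was drawn up with earlier results of these data known. The paper had already listed those 8 genes as differentially expressed in these libraries, so the passes and the separation of this list are not independent evidence. Markers of choroid plexus epithelium differed widely inside both groups (1.56 to 6.01 log2 CPM in controls and 0.578 to 4.52 in SAP97-cKO), and all 15 had log2 fold changes below 0, with a median of -1.48 beside -1.15 for the meningeal list. By edgeR 0 of the 15 passed, 0 of them at an unadjusted p under 0.05. Hippocampal neuron markers were present in every library, and their median log2 fold change was 0.11. In bulk tissue, fewer cells of a type and less RNA per cell cannot be told apart.

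None of the 10 genes passed the threshold of the study, a false discovery rate under 0.25, in the edgeR test, against 0.295% of the 16251 genes tested, a share that amounts to less than 1 gene in a list of 10. At an unadjusted p under 0.05, 3 of the 10 were lower in SAP97-cKO hippocampus (Bmp4, Bmp5 and Bmp7), where 7.01% of all genes tested were, and 0 were higher, where 4.73% of all genes were. The 2 genotypes did not overlap in 2 of the 10, Bmp5 and Bmp7, both lower in SAP97-cKO. Of all genes tested, 3.47% separated in that direction and 2.78% in the other, in which none of the 10 did. DESeq2 called Bmp5 and Bmp7, and limma-voom as run here with TMM scaling called 0 of the 10. Bmp5 was close to the threshold in that limma-voom fit (adjusted p = 0.258). The paper, by its own limma-voom analysis at the same threshold, lists Bmp5 among its differentially expressed genes. The median log2 fold change was -0.50 over the 6 ligands and 0.14 over the 4 antagonists, with all 4 antagonists above 0, beside -0.01 over all genes tested.

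**Figure D1:**
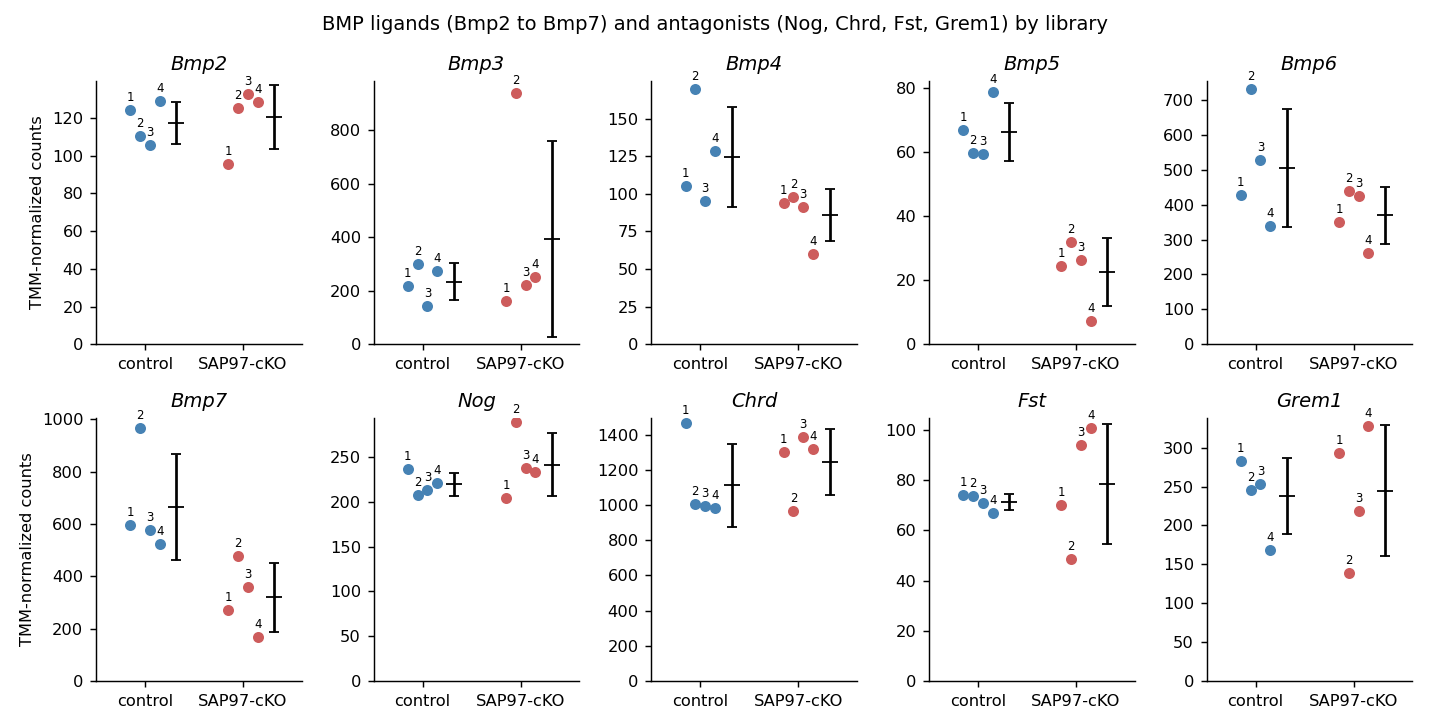
TMM-normalized counts of the 6 ligands and 4 antagonists in each library (blue, control; red, SAP97-cKO; digits, replicate number; black bar, mean and SD of 4 libraries; every axis starts at 0). Bmp5 and Bmp7 are the 2 genes in which every SAP97-cKO library lies below every control library, and in Bmp3 a single SAP97-cKO library stands at 939.

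Bmp5 gave the lowest log2 fold change of the 10. It is a ligand of the subgroup that also holds Bmp6 and Bmp7, with known roles in skeletal and limb development. The gene (ENSMUSG00000032179) lies at chr9:75775364-75900310 on the plus strand of GRCm38. Normalized counts were 67.1, 59.8, 59.3 and 78.6 in control replicates 1 to 4 and 24.4, 31.9, 26.3 and 7.27 in SAP97-cKO replicates 1 to 4. The control libraries lay close together and the SAP97-cKO libraries were all lower, with replicate 4 far below the other 3. The means were 66.2 ± 9.03 and 22.5 ± 10.6 (SD, n = 4 each), so SAP97-cKO libraries held 34.0% of the control level. This was a log2 fold change of -1.55 (SE 0.35, 95% interval -2.32 to -0.78), with an unadjusted p of 0.00113 and an adjusted p of 0.283 in the edgeR quasi-likelihood test. A two-sided exact permutation test gave p = 0.0286, the smallest that 4 against 4 libraries can give. Bmp5 sat close to the threshold, since it passed without control replicate 1 (adjusted p = 0.184) or without SAP97-cKO replicate 1 (0.210) and gave 0.274 to 0.646 without each of the others. An annotated antisense gene, Gm26903, shares 1878 exonic bases with Bmp5, and it held 1 read over all 8 libraries.

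Bmp7, a ligand made by the meninges and choroid plexus of the developing brain and required for kidney and eye development, was the other ligand that separated the genotypes. The gene (ENSMUSG00000008999) lies at chr2:172868012-172940321 on the minus strand. Its normalized counts were 596, 966, 576 and 522 in controls and 272, 477, 360 and 168 in SAP97-cKO libraries. Control replicate 2 was well above the other controls, and SAP97-cKO replicate 2, the highest of its group, remained under the lowest control. The means were 665 ± 203 and 319 ± 131, or 48.0% of control, and the log2 fold change was -1.06 (SE 0.29, 95% interval -1.71 to -0.41; edgeR adjusted p = 0.319; exact permutation p = 0.0286). Leaving out 1 library at a time gave log2 fold changes of -1.32 to -0.82, and the call was made only without control replicate 1 (edgeR adjusted p = 0.200).

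Bmp4 and Bmp6 were lower in mean with overlapping groups. Bmp4 (ENSMUSG00000021835, chr14:46383520-46390669, minus strand) is a ligand that patterns the dorsal neural tube and promotes the glial fate of neural precursors. Its normalized counts were 105, 169, 95.2 and 128 in controls and 93.7, 97.6, 91.2 and 60.2 in SAP97-cKO libraries. The overlap came from SAP97-cKO replicate 2, which stood just above control replicate 3. This gave a log2 fold change of -0.54 (SE 0.22, 95% interval -1.03 to -0.05, edgeR adjusted p = 0.400, exact permutation p = 0.0571), and SAP97-cKO libraries held 68.8% of the control mean. Committed oligodendrocyte precursors are a known source of Bmp4 in the brain, and 8 of 10 markers of these cells and of oligodendrocytes lay below 0, with a median log2 fold change of -0.44. Of all 16251 genes tested, 8574 lay below 0. By edgeR 0 of the 10 markers passed, and at an unadjusted p under 0.05 4 were lower and 1 higher. These markers summed to 201091 to 321543 normalized counts in controls and 157967 to 283589 in SAP97-cKO libraries. None was at 0 in any library, and their part in the Bmp4 value was not tested.

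Bmp6 (ENSMUSG00000039004, chr13:38345107-38500302, plus strand), the close relative of Bmp5 and Bmp7 that controls hepcidin and so iron levels in the liver, gave 426, 731, 528 and 338 normalized counts in controls and 351, 440, 424 and 261 in SAP97-cKO libraries. Control replicate 4 lay below 3 of the 4 SAP97-cKO libraries. The log2 fold change of -0.45 (SE 0.24, 95% interval -0.98 to 0.07, edgeR adjusted p = 0.461, exact permutation p = 0.229) was within the spread between libraries. Bmp6 shares 224 exonic bases with the antisense gene Txndc5, whose counts of 2233 to 2565 hardly differed between libraries, and the sources used here do not say whether reads were assigned by strand.

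Bmp2 and Bmp3 were not lower in mean. Bmp2 (ENSMUSG00000027358, chr2:133552159-133562885, plus strand), the closest relative of Bmp4 and a strong inducer of bone, gave 124, 111, 106 and 129 normalized counts in controls and 95.7, 125, 133 and 129 in SAP97-cKO libraries. The groups overlapped throughout, and the 95% interval of the log2 fold change of 0.04 ran from -0.29 to 0.37 (SE 0.15, edgeR adjusted p = 0.929).

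Bmp3 (ENSMUSG00000029335, chr5:98854415-98884396, plus strand) is an atypical member that opposes the bone-forming ligands. Its normalized counts were 219, 301, 142 and 275 in controls and 163, 939, 220 and 250 in SAP97-cKO libraries. SAP97-cKO replicate 2 alone set the mean of its group, which was 393 ± 366 against 234 ± 70.4 in controls. With it, the log2 fold change was 0.75 (SE 0.50, 95% interval -0.37 to 1.87, edgeR adjusted p = 0.557), and without that library it was -0.15 (adjusted p = 0.820). That same library held the lowest counts of Prox1 (2436) and C1ql2 (1394), both markers of dentate granule cells named here after their values were seen, which were 3398 to 6468 and 2386 to 3371 in the other 7 libraries. Both belong to the list of 10 hippocampal neuron markers, and the remaining genes of that list are not given singly here. The list as a whole averaged 6.57 log2 CPM in SAP97-cKO replicate 2. It averaged 6.75 to 7.06 in controls and 7.02 to 7.17 in the other SAP97-cKO libraries. The part of these levels in the Bmp3 value was not tested.

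Sequences that end at an annotated start of transcription are shown because 4 ligands had lower means in SAP97-cKO hippocampus, and 3 of these have a window in the table used. The RefSeq table (GRCm38.p6) held windows for 5 of the 10 genes (Bmp4, Bmp5, Bmp6, Chrd and Grem1), and not for Bmp2, Bmp3, Bmp7, Nog and Fst. Each window below is the 250 bases that end right before the start of transcription in RefSeq, written 5′ to 3′ on the strand of the gene. The windows are chr9:75775115-75775364 (plus strand) for Bmp5, chr14:46390670-46390919 (minus strand) for Bmp4 and chr13:38345466-38345715 (plus strand) for Bmp6. The gene spans given above are from GENCODE, whose start for Bmp6 lies before the RefSeq start, so the Bmp6 window lies within the GENCODE span and is not upstream of it. Capitals mark letters that match 1 of 5 motifs searched on both strands, which were the letters TATAAA of a TATA box, the 5 letters that name the CCAAT box, GGGCGG as a GC box, CANNTG as an E-box and GGCGCC as a GC-rich Smad element.
Bmp5: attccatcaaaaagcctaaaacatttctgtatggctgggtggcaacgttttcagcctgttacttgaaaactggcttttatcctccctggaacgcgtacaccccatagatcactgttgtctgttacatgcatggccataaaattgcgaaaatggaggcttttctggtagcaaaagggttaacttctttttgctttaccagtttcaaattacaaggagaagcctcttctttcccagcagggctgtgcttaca
Bmp4: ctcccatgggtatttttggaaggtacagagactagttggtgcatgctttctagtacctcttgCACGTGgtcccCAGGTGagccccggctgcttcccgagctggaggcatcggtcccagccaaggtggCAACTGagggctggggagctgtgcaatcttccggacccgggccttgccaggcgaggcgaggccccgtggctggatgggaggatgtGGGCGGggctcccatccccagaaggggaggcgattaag
Bmp6: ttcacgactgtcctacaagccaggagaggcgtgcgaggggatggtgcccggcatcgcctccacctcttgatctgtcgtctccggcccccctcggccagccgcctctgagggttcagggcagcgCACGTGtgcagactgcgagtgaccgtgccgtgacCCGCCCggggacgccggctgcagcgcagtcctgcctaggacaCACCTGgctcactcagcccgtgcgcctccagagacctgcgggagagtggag
The Bmp5 window held none of the 5 motifs and was poor in G and C. Its GC content was 42.8%, with 4 CpG dinucleotides, where the median of 32841 windows was 52.4% and 6, and 17.9% of windows had a lower GC content. The Bmp4 and Bmp6 windows were richer, at 63.2% GC with 11 CpG and 68.8% GC with 22 CpG. Bmp4 held 1 GC box, which starts 38 bases before the start of transcription, and 3 E-boxes. Bmp6 held 1 GC box and 2 E-boxes, and in these 3 windows no letter belonged to 2 motifs. The windows of the antagonists Chrd and Grem1 were the richest of the 5, with 78.0% and 72.0% GC, 28 and 24 CpG, 4 and 3 GC boxes and 1 GC-rich Smad element each, and 2 of the GC boxes of Chrd overlap each other. Of all windows, 12.4% held the TATA box, 33.9% the CCAAT box, 32.7% the GC box, 66.2% the E-box and 9.59% the Smad element, so matches to most of these are common. These matches describe letters and not sites of binding.

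The 4 antagonists showed no difference beyond the spread between libraries. Noggin, encoded by Nog (ENSMUSG00000048616, chr11:89300638-89302332, minus strand), binds Bmp2 and Bmp4 tightly. Its normalized counts were 237, 207, 214 and 221 in controls and 205, 290, 238 and 234 in SAP97-cKO libraries. The controls were tightly grouped, and SAP97-cKO replicate 2 was the highest of the 8 libraries, as in Bmp3. Between genotypes the log2 fold change was 0.14 (SE 0.12, 95% interval -0.14 to 0.41, edgeR adjusted p = 0.658).

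Chordin, encoded by Chrd (ENSMUSG00000006958, chr16:20733127-20742384, plus strand), is the antagonist that dorsalizes the early embryo. It gave 1467, 1008, 995 and 981 normalized counts in controls and 1304, 969, 1386 and 1320 in SAP97-cKO libraries. In each genotype 1 library stood apart, control replicate 1 above the other controls and SAP97-cKO replicate 2 below the rest of its group. The log2 fold change was 0.16 (SE 0.15, 95% interval -0.17 to 0.50, edgeR adjusted p = 0.664). Without control replicate 1 it was 0.32 and passed the threshold (edgeR adjusted p = 0.244), while leaving out any other library gave 0.11 to 0.27 and adjusted p values of 0.469 to 0.862. Chrd shares 239 exonic bases with the antisense gene Thpo, which held 55.8 to 124 normalized counts.

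Follistatin, encoded by Fst (ENSMUSG00000021765, chr13:114452290-114458951, minus strand), binds activins most strongly and some BMPs. Its normalized counts were 74.1, 73.8, 70.9 and 67.0 in controls and 70.3, 48.8, 94.2 and 101 in SAP97-cKO libraries. The controls lay within 71.4 ± 3.28, and the SAP97-cKO libraries spread to both sides of them (78.5 ± 23.7). Between genotypes the log2 fold change was 0.14 (SE 0.23, 95% interval -0.37 to 0.64, edgeR adjusted p = 0.821).

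Gremlin 1, encoded by Grem1 (ENSMUSG00000074934, chr2:113746164-113758646, minus strand), binds Bmp2, Bmp4 and Bmp7. It gave 283, 245, 254 and 168 normalized counts in controls and 293, 138, 219 and 328 in SAP97-cKO libraries. Both the lowest and the highest library were SAP97-cKO libraries. The log2 fold change was 0.04 (SE 0.25, 95% interval -0.52 to 0.60, edgeR adjusted p = 0.957), and its sign turned under several other settings. For these 4 genes the intervals still hold differences of 0.41 or more on the log2 scale, so the data do not show that their levels were alike.

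The genes also differed in level. In reads per kb of exon per 1000000 counts, which allows levels of different genes to be compared, Chrd had the highest mean over the 8 libraries at 5.04 (range 4.14 to 6.27), followed by Nog at 3.64 (3.23 to 4.57). Bmp7 at 3.27 (1.12 to 6.42) and Bmp6 at 3.00 (1.79 to 5.01) were the most abundant ligands. Further down on the same scale came Grem1 at 1.55, Bmp4 at 1.25, Bmp3 at 1.13 and Bmp2 at 0.895. Fst at 0.437 (0.284 to 0.587) and Bmp5 at 0.294 (0.0483 to 0.522) were the lowest. In this order Bmp2 and Fst were the only neighbours whose ranges over the 8 libraries did not overlap. Control libraries alone placed Bmp7 at 4.42 ± 1.35 reads per kb, near Chrd at 4.75 ± 1.01, whereas in SAP97-cKO libraries Bmp7 was at 2.12 ± 0.872 and Chrd at 5.32 ± 0.80. Bmp5 was at 0.440 ± 0.0600 in controls, beside Fst at 0.416 ± 0.0191, and at 0.149 ± 0.0705 in SAP97-cKO libraries, where it was the lowest of the 10.

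**Figure D2:**
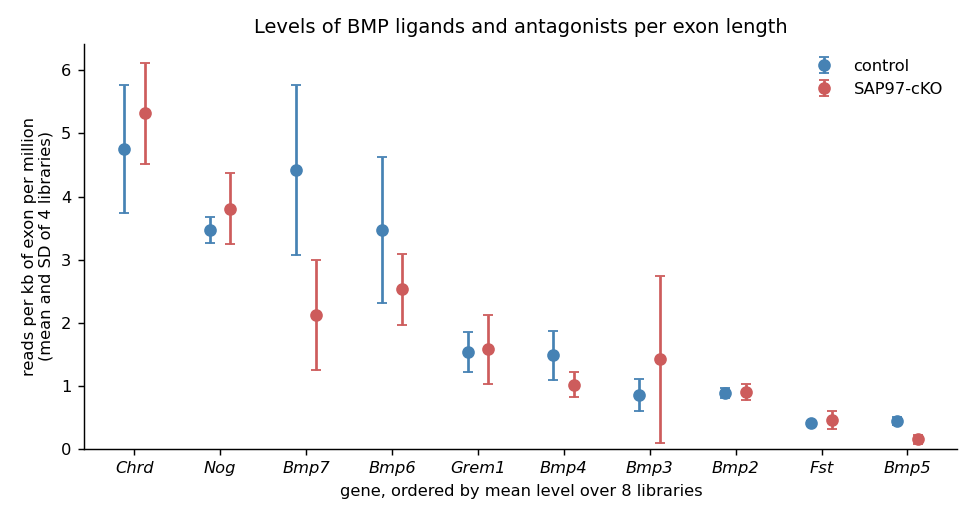
Mean level of each gene in reads per kb of exon per 1000000 counts (points, mean of 4 libraries; bars, SD; blue, control; red, SAP97-cKO; the axis starts at 0), ordered by the mean over 8 libraries. Chrd and Nog stand at the top and Fst and Bmp5 at the bottom, and the bars of the genotypes are apart in Bmp7 and Bmp5.

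The ligands with lower means followed the marker lists of meningeal fibroblasts and choroid plexus epithelium in some groups of libraries and not in others. Inside the SAP97-cKO group, Bmp5, Bmp6 and Bmp7 put the libraries in 1 order (replicates 2, 3, 1 and 4 from high to low). The meningeal fibroblast level went from 2.85 to 1.75 log2 CPM and the choroid plexus level from 4.52 to 0.578 in that same order of libraries. Bmp4 put them in the order 2, 1, 3 and 4. In controls the order of Bmp6 was that of the choroid plexus level (6.01, 5.15, 3.51 and 1.56 log2 CPM in replicates 2, 3, 1 and 4). Bmp4 put the controls in the order 2, 4, 1 and 3 and Bmp7 in the order 2, 1, 3 and 4. Neither was the order of the meningeal fibroblast level (2, 1, 4 and 3) or of the choroid plexus level. Bmp5 followed neither list in controls either. Control replicate 4 had the lowest choroid plexus level of its group and the highest Bmp5, and control replicate 2, with the highest meningeal fibroblast level (3.78), held 59.8 normalized counts of Bmp5, the third of the 4. Summed over the list, the meningeal fibroblast markers held 13178 to 23314 normalized counts in controls and 6955 to 12360 in SAP97-cKO libraries. Igf2 alone held 2891 to 11048 of them in controls and 1668 to 4807 in SAP97-cKO libraries, with overlap. In 13 of the 20 genes the genotypes did not overlap, all lower in SAP97-cKO, against 3.47% of all genes tested. The list was drawn up with earlier results of these data known, so that count is not independent evidence. The choroid plexus markers summed to 6835 to 265332 and 3861 to 91203. None of these markers was at 0 in any library. The most abundant were Igf2, Mgp and Dcn in the first list, with log2 fold changes of -0.78, -1.0 and -0.01, and Ttr, Clic6 and Kl in the second, with -1.48, -1.37 and -1.03. Of these 6, Mgp passed the edgeR test (adjusted p = 0.201).

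**Figure D3:**
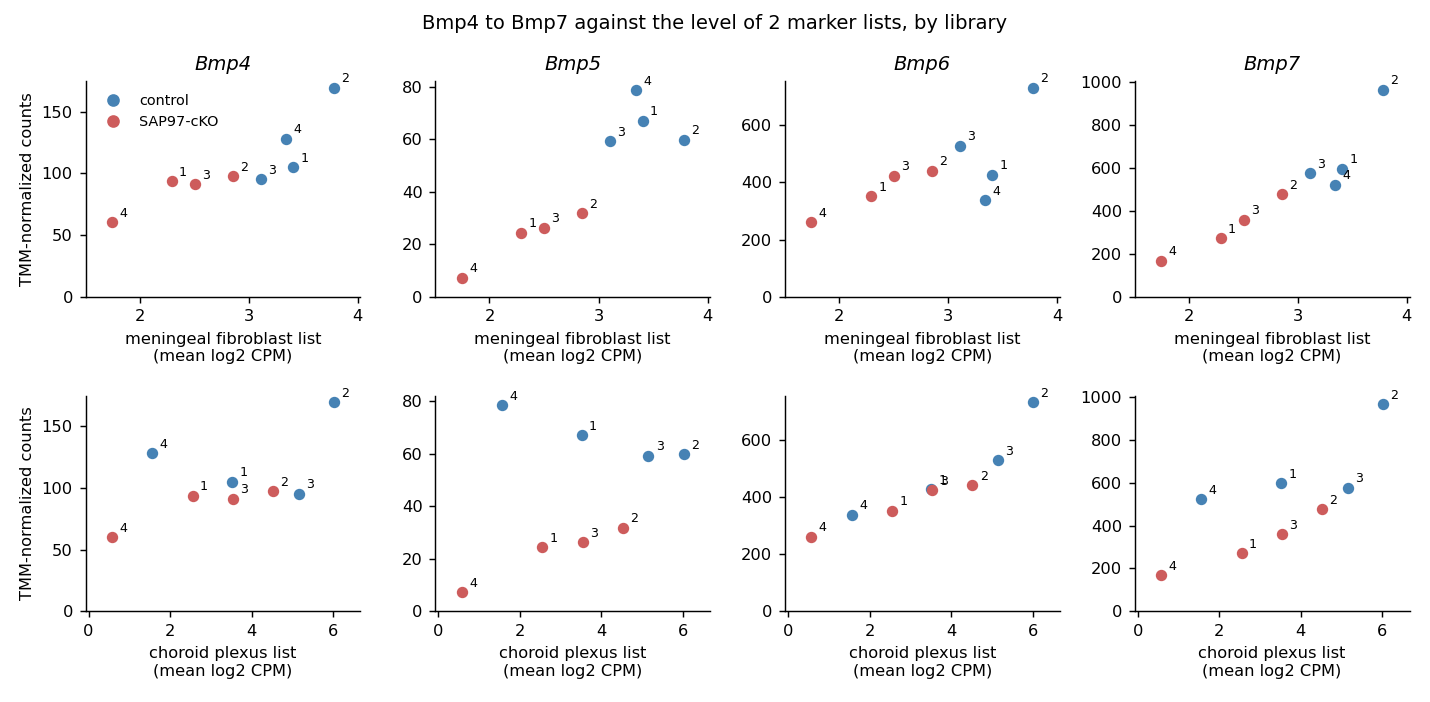
Normalized counts of Bmp4, Bmp5, Bmp6 and Bmp7 (vertical axes) in each library against the mean log2 CPM of the meningeal fibroblast list (top row) and of the choroid plexus list (bottom row); blue, control; red, SAP97-cKO; digits, replicate number. On the top row the genotypes occupy separate ranges of the horizontal axis (1.75 to 2.85 and 3.11 to 3.78), and on the bottom row Bmp6 lies along 1 rising band that holds both genotypes.

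With the meningeal fibroblast level added to the edgeR model, the log2 fold change between genotypes was -0.50 (SE 0.57) for Bmp5, 0.29 (SE 0.21) for Bmp7, 0.31 (SE 0.32) for Bmp4 and 0.36 (SE 0.33) for Bmp6, with an adjusted p of 1.00 for each. In the same fit Bmp3 moved away from 0, to 2.28 (SE 0.61), and the others gave 0.05 (Bmp2), 0.32 (Nog), -0.09 (Chrd), -0.44 (Fst) and -0.81 (Grem1), also with an adjusted p of 1.00 for each. Dlg1 itself gave -0.42 (SE 0.17), and 0 of all genes passed, 642 of them at an unadjusted p under 0.05. The meningeal list was drawn up with earlier results of these data known, and 8 of its genes were among those the paper listed. Its level separates the genotypes without overlap, so genotype and meningeal content cannot be told apart in these libraries. The changes of value and sign in this fit cannot decide between them. With the choroid plexus level in the model instead, Bmp5 gave -1.50 (SE 0.35) and Bmp7 -0.81 (SE 0.17), while Bmp6 gave -0.15 (SE 0.10). The value for Bmp5 was thus nearly as large with that term as without it, and that for Bmp6 was nearer to 0.

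Beyond genotype, the 10 genes fell into different company. For each gene the log2 CPM was centred within each genotype, and the 3 genes with the highest Pearson correlation over the 8 libraries were taken from all genes tested, as a description without a test. The libraries share their scaling, and with 8 of them high values arise for some genes of any large table. For Bmp4 they were Anxa9 (r = 0.988), Ogn (0.967) and Irgm1 (0.964), for Bmp5 Hic1 (0.970), Shc1 (0.962) and Mtbp (0.955), for Bmp6 St6galnac2 (0.991), Igf2 (0.989) and Stk36 (0.985), and for Bmp7 Rnd3 (0.988), Cd300lg (0.975) and Foxc2 (0.973). Ogn, which encodes a small proteoglycan of connective tissue, Igf2, a secreted growth factor, and Foxc2, a transcription factor of mesenchyme, are also members of the meningeal fibroblast list. Igf2 nevertheless put the controls in the order of the choroid plexus level, with 11048, 6224, 3759 and 2891 normalized counts in replicates 2, 3, 1 and 4. Bmp3 was nearest to the neuronal genes Arpp21 (r = 0.986), Elavl4 (0.979) and Stx1a (0.978). All of these were highest in SAP97-cKO replicate 2, the library that stood apart in Bmp3, so that library weighs heavily in these correlations. Arpp21 held 11362 normalized counts there and 3675 to 5282 in the others. Bmp2 was nearest to Pja1 (0.989), Gapdh (0.987) and Dcn (0.979), the last of which is in the meningeal fibroblast list too. The antagonists were nearest to Plppr3, Rps6kc1 and Wdr48 (Nog, r = 0.982 to 0.993), Celf3, Dpf2 and Gpr75 (Chrd, 0.984 to 0.990), Irf2bp1, Gm12063 and Mtfmt (Fst, 0.972 to 0.979) and Actr2, Jph3 and Gm38399 (Grem1, 0.978 to 0.984). Among the 10 genes themselves, r was 0.872 between Bmp6 and Bmp7, 0.804 between Bmp4 and Bmp7, 0.705 between Bmp5 and Bmp7, 0.804 between Bmp3 and Nog and -0.769 between Bmp3 and Grem1. In SAP97-cKO replicate 2 Nog was at its highest and Grem1 at its lowest, so the same library weighs in both Bmp3 values.

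The rest of the pathway held no gene past the threshold. Of 61 further pathway genes listed by role, 59 were in the table, 49 were tested and 0 passed the edgeR test (2 by DESeq2; lowest adjusted p = 0.361), against 0.295% of all genes. At an unadjusted p under 0.05, 2 were lower (Fstl1 and Msx1; 7.01% of all genes) and 2 higher (Acvr1b and Acvr2a; 4.73%), and the median log2 fold change of the 49 was -0.04. Acvr1b and Acvr2a were also the only 2 of the 49 whose genotypes did not overlap, both higher in SAP97-cKO, against 2.78% of all genes, and 0 did so in the lower direction, against 3.47%.

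Acvr2a encodes a type II receptor that binds activins and BMPs, and Acvr1b the type I receptor of activins. Acvr2a gave 2075, 1818, 1844 and 2092 normalized counts in controls and 2223, 2805, 2195 and 2224 in SAP97-cKO libraries, a log2 fold change of 0.27 (SE 0.09, edgeR adjusted p = 0.361). Replicate 2 stood far above the other SAP97-cKO libraries, which were just over the highest control. Acvr1b gave 5274, 5101, 4614 and 4049 in controls and 5633, 5452, 5456 and 5565 in SAP97-cKO libraries, a log2 fold change of 0.22 (SE 0.08, edgeR adjusted p = 0.383), and the SAP97-cKO libraries lay close together. It was also the receptor gene with the highest level per length. All 13 receptor and co-receptor genes were tested, 7 of them above 0 and 6 below, with a median of 0.03.

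Of 14 further ligands 4 were tested, and none reached an unadjusted p of 0.05. Inhba and Inhbb, which encode the subunits of activins, gave log2 fold changes of 0.44 (adjusted p = 0.515) and 0.26 (adjusted p = 0.520), and Gdf11, the most abundant per length of the 4, gave -0.07 (adjusted p = 0.766). Among 16 extracellular regulators, 14 were tested and 11 lay below 0, where 8574 of all 16251 genes tested did. Fstl1, a secreted glycoprotein of the follistatin-like family, gave -0.17 (adjusted p = 0.412), and Nbl1, the most abundant per length, gave -0.08 (adjusted p = 0.628). The lowest value of the regulators was that of Sost, a secreted inhibitor named here after its value was seen, at -1.91 (SE 0.90, adjusted p = 0.435) on 2.00 to 62.8 normalized counts in controls and 2.03 to 18.9 in SAP97-cKO libraries.

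The 8 Smad genes were tested and had a median log2 fold change of -0.03. The inhibitory Smads, which BMP signalling itself induces, gave -0.27 (Smad6, adjusted p = 0.658) and -0.10 (Smad7, adjusted p = 0.674), and the shared partner Smad4 gave -0.01 (adjusted p = 0.954). Of 10 genes known to respond to BMP, 7 lay below 0, where 8574 of all 16251 genes tested did. Their median was -0.10. The homeobox genes Msx1 and Msx2 gave -0.77 (SE 0.31, adjusted p = 0.392) and -0.71 (SE 0.33, adjusted p = 0.427), while Id2, the most abundant per length, gave -0.10 (adjusted p = 0.750). Msx1 held 337, 913, 643 and 374 normalized counts in controls and 252, 440, 371 and 265 in SAP97-cKO libraries. In both genotypes replicate 2 was the highest, then replicate 3, and the groups overlapped.

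**Figure D4:**
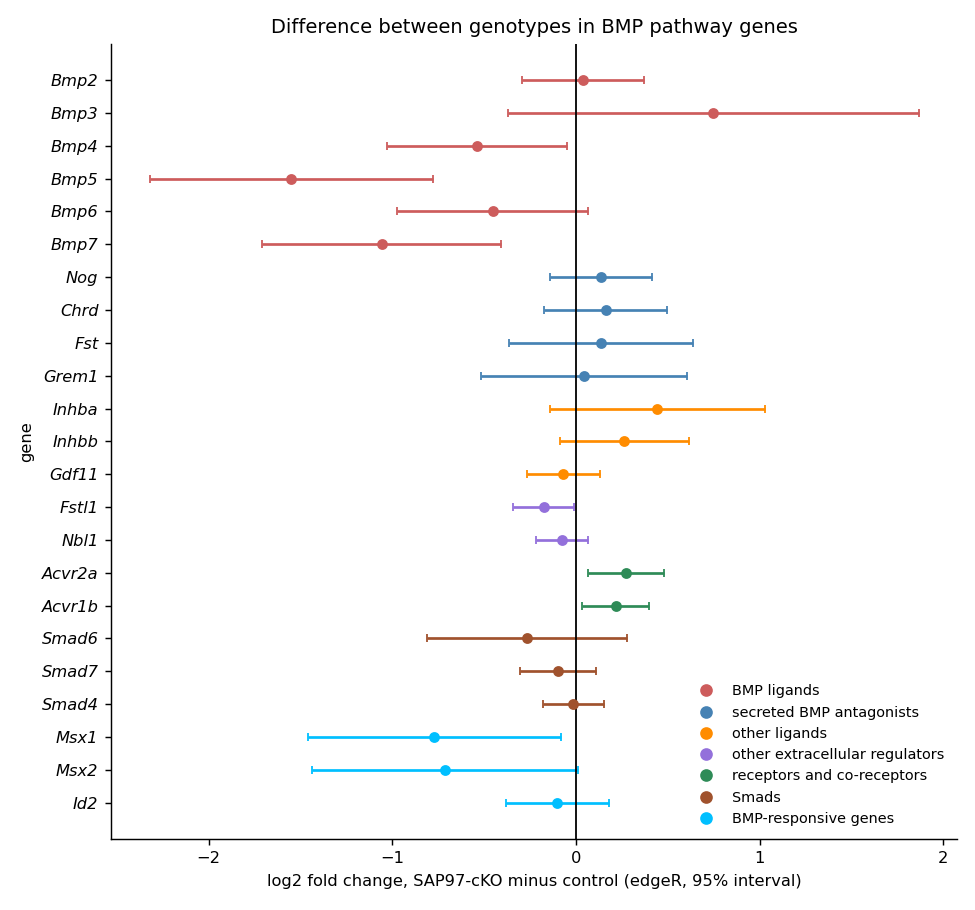
Log2 fold change (SAP97-cKO minus control, edgeR, bars are 95% intervals) of the 10 ligands and antagonists and of 13 further pathway genes, coloured by role. The intervals of Bmp4, Bmp5, Bmp7, Fstl1 and Msx1 lie below 0, those of Acvr1b and Acvr2a above 0, and the others shown include 0.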

How the data were processed

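Hippocampal RNA (Qiagen RNA mini kit, TruSeq RNA kit) was sequenced by the authors, who aligned the reads with STAR 2.5.3a to mm10 (GRCm38.p5) and resampled each library to a common depth with the PORT pipeline before counting. The deposited values are whole-number counts of reads per Ensembl gene, one column per mouse. Columns of the authors' limma-voom comparison stand beside them (p-value, q-value and log2 fold change) and were not used. Counts came to 37388177 to 37426572 per library.

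The genes and lists were chosen with earlier results of these data known. Named are all 10 ligands and antagonists, Dlg1, the 2 genes with the smallest p and the most abundant gene of each further role group, 3 correlated genes per member and the 3 most abundant genes of 2 marker lists. One gene that this rule names is not reported here. Prox1, C1ql2, Sost and the antisense genes fall outside it. Genes were filtered with filterByExpr (minimum count 10, minimum total 15; 9583 removed), scaled by TMM and tested by quasi-likelihood in edgeR (version 4.0.16, under R 4.3.3). The Benjamini-Hochberg method was applied over all 16251 genes, and an FDR under 0.25 counted as passed. Normalized counts are counts divided by the TMM-scaled library size times the mean library total. The test was checked on simulated data. Single values were compared by two-sided exact permutation tests over 70 assignments (smallest p 0.0286). Levels per length used exon lengths of GENCODE M21 (GRCm38), which also gave the coordinates, and log2 CPM used a prior count of 2. limma-voom (limma 3.58.1) and DESeq2 1.42.0, other scalings and filters, a stricter FDR, the replicate number as a block, 2 marker lists as covariates and leaving out each library were the alternatives. Chi-square values per gene of 7.30 to 50.3 between libraries of a group were above sampling noise. The 4 mice of a group are separate animals, but other sources of batch were not given.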

Additional observations from a re-analysis of the deposited data

Results flagged for a closer look

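In 48 groups of 4 libraries (the 10 ligands and antagonists, Dlg1 and the 13 further pathway genes named, each in 2 genotypes), 1 library lay apart from the other 3 by Dixon's criterion for gaps in 5 cases, where chance alone is set to give about 1 in 20. Bmp3 was at 939 normalized counts in SAP97-cKO replicate 2, beside 163 to 250 in the others. Acvr2a was at 2805 in that same library, beside 2195 to 2224. Bmp4 was at 60.2 in SAP97-cKO replicate 4, beside 91.2 to 97.6. Bmp7 was at 966 in control replicate 2, beside 522 to 596. Chrd was at 1467 in control replicate 1, beside 981 to 1008.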

How the results depend on the processing

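Over all genes, 48 passed the test, against 1033 with DESeq2, 95 without scaling, 104 without a filter, 0 with the meningeal fibroblast level in the model (642 at an unadjusted p under 0.05), 16 with the choroid plexus level, 0 at an FDR under 0.05 (1907 at an unadjusted p under 0.05), and 0 to 1675 when 1 library was left out. Of the 10 ligands and antagonists 0 passed, against 2 with DESeq2 and without a filter (Bmp5 and Bmp7), 1 without scaling (Bmp5) and 0 to 3 when 1 library was left out (3 without control replicate 1, which were Bmp5, Bmp7 and Chrd). Of the other pathway genes 0 passed, against 2 with DESeq2 and 0 to 7 without 1 library (7 without control replicate 1). Dlg1 gave -0.42 with the meningeal level, -0.86 at the stricter FDR, which it missed (edgeR adjusted p = 0.143), and -1.0 to -0.78 without 1 library. It missed the threshold without control replicate 2, SAP97-cKO replicate 3 or SAP97-cKO replicate 4 (edgeR adjusted p = 0.424, 0.524 and 0.346).

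Signs turned in the log2 fold changes of Bmp4 (0.31), Bmp6 (0.36), Bmp7 (0.29), Chrd (-0.087), Fst (-0.44) and Grem1 (-0.81) with the meningeal level, of Bmp2 (-0.0061) and Grem1 (-0.0061) without scaling, and of Grem1 with limma-voom (-0.0080) and the choroid plexus level (-0.080). Without 1 library the ranges were -0.0036 to 0.14 (Bmp2), -0.15 to 1.01 (Bmp3), -0.0026 to 0.31 (Fst) and -0.13 to 0.24 (Grem1). Bmp5 kept its sign in all alternatives run, and could not be tested with a minimum of 10 counts in every library. The cause of these differences was not tested.

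Both genotypes number their replicates 1 to 4, and the labels do not say whether same-numbered libraries were paired or shared a batch. The choroid plexus level put the libraries in the order 2, 3, 1 and 4 in both genotypes, as did Bmp6. Whether the numbers mark a pairing is not known. Deviations of same-numbered libraries from their group means correlated at -0.06, 0.20, 0.09 and 0.26, and 5 of 8 libraries were closest to their own number. With a replicate block, 256 genes passed over all, 2 of the 10 (Bmp5 and Bmp7) and 1 of the other pathway genes, and Grem1 gave -0.00018. Counts near 60 and below, as in Bmp5, limit the precision of single libraries.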
